A study of Homo sapiens with 10 samples.

Results

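H4R3me2s, the symmetric dimethylation of arginine 3 on histone H4, was mapped by ChIP-seq at 8 genes tied to neuroblastoma, ALK, MYCN, NBAS, DDX1, LMO1, BARD1, LIN28B and PTPRD, out of 20037 protein-coding genes. A peak was counted for a gene when it overlapped the RefSeq gene span (GRCh38) extended by 2 kb on each side. The 8 windows cover 4.16 Mb and held 147 of the 67753 peaks called in the individual libraries. ALK was chosen by its number of pooled narrow peaks over Naive, the highest of any protein-coding gene, so its counts are described without a test. The other 7 genes were added for their known part in the tumour, with values of these data in view.

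All cells were SH-SY5Y, a human neuroblastoma line, with a Tet-on construct for α-synuclein grown under zeocin. BDNF+Dox cells (n = 3 libraries) received 10 µM retinoic acid for 6 days, then serum-free medium with 50 ng/ml BDNF for 4 days, and 1 µg/ml doxycycline over 3 days to induce α-synuclein. BDNF cells (n = 3) had the same differentiation without doxycycline, and Naive cells (n = 3) had neither. A single Input library without antibody, labelled as untreated, was the background for all 9 ChIP libraries. No cells given doxycycline without the construct were analysed here, so the effects of drug and protein cannot be told apart. The labels do not say whether replicates were separate cultures, and p-values therefore measure only the spread between these libraries, which may be technical.

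ALK encodes a receptor tyrosine kinase of the developing nervous system, which the ALKAL cytokines activate and which signals through RAS-MAPK and PI3K. It is the gene most often mutated in familial neuroblastoma, and SH-SY5Y is known to carry an activating ALK mutation. MYCN, a MYC family transcription factor, is amplified in high-risk tumours, often together with its neighbours on 2p, NBAS (a factor of retrograde transport from the Golgi) and DDX1 (an RNA helicase), whereas SH-SY5Y is known as a line without MYCN amplification. LMO1 (a LIM-only transcriptional cofactor), BARD1 (the partner of BRCA1) and LIN28B (a repressor of let-7 microRNA maturation) are inherited risk loci. PTPRD, a receptor tyrosine phosphatase of neurons, is lost in part of the tumours. H4R3me2s is written mainly by PRMT5 and is known chiefly as a mark of repressed chromatin.

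The promoter windows below are those of ALK, whose main start had pooled peaks within 2 kb upstream, and of MYCN, which had no peak in any list. Each runs from 250 bases before to 50 after a RefSeq start (GRCh38.p14), is written 5′ to 3′ in the direction of the gene, and has GC boxes (GGGCGG) and E-boxes (CACGTG, the MYC family site) on either strand in capitals.
ALK, main start, chr2:29921537-29921836, minus strand: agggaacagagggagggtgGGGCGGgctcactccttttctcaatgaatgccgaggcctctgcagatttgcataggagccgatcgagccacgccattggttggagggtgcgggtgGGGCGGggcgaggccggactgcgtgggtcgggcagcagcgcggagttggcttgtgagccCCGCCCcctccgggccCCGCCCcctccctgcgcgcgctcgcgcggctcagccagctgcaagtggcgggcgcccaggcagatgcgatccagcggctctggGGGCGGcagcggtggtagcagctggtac
ALK, internal start, chr2:29223774-29224073, minus strand: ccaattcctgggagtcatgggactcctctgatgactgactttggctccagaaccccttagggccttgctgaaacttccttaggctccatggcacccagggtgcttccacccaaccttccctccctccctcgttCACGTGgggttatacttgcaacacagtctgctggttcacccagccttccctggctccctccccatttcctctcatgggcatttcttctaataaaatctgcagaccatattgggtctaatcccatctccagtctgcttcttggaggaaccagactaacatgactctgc
MYCN, chr2:15940300-15940599, plus strand: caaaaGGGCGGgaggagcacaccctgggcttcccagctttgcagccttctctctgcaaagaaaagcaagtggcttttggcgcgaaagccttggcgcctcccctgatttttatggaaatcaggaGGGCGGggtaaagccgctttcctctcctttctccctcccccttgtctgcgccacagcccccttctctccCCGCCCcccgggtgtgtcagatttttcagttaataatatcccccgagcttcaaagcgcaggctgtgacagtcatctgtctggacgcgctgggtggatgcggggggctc
The ALK main promoter held 5 GC boxes and 0 E-boxes, its internal promoter 0 and 1, and the MYCN promoter 3 and 0. Of 35116 such promoters, 45.0% held the GC box and 7.26% the E-box, and these 2 motifs did not overlap in the windows shown. GC content was 71.0% at the ALK main start, 53.0% at its internal start and 58.7% at MYCN, against a median of 58.7% over all promoters. Promoter windows were found for 8 of the 8 genes, 12 windows in all, and 0 peaks of any of the 9 libraries or 4 pooled lists overlapped them. A match describes only the letters in these windows.

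Depth was even and most peaks were weak. The ChIP libraries kept 17164402 to 18928589 reads after duplicate removal and the Input 17074000. The authors' calls numbered 8045 ± 2460 (SD, n = 3) per library in BDNF+Dox cells, against 5865 ± 1205 in BDNF cells and 8674 ± 3221 in Naive cells. Of the 8 genes, 6 had a peak in at least 1 library, as did 37.2% of all protein-coding genes and 89.9% of those 100 kb or longer. Only 0.147 to 0.556% of the peaks in a library reached a q of 0.05 or below, and 3 of the 147 in the 8 genes did. The deposited peaks carry no read counts per region, so no counting interval was computed for a peak. A fold or q of a peak is the authors' own value, used here only within its list. A gene without a peak is one where none was called at this depth, not one shown to lack the mark.

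ALK carried few peaks in the individual libraries. It spans chr2:29192774-29921586 on the minus strand, 729 kb, and had 3, 2 and 1 peaks in BDNF+Dox replicates 1 to 3, against 0, 1 and 0 in BDNF and 2, 0 and 2 in Naive. Each of the 3 BDNF+Dox libraries thus had a peak, as did 1 of 3 BDNF and 2 of 3 Naive libraries, and the ranges of the groups touched or overlapped. In 0 of the 8 genes did every BDNF+Dox library lie above every BDNF library, above every Naive library or below every Naive library, which was so in 1.62%, 0.899% and 0.523% of the 7453 genes with a library peak. Means were 2 ± 1 (SD, n = 3) per BDNF+Dox library, against 0.333 ± 0.577 for BDNF and 1.33 ± 1.15 for Naive. As a share of the peaks of each library, ALK held 0.241 ± 0.0719 per 1000 for BDNF+Dox, against 0.0735 ± 0.127 for BDNF and 0.139 ± 0.128 for Naive. The 11 library peaks lay at 11 places, none shared by 2 libraries. Of the 65632 regions of all libraries only 2.37% recurred in 2 or more, so that 0 of 11 does not set ALK apart.

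**Figure D1:**
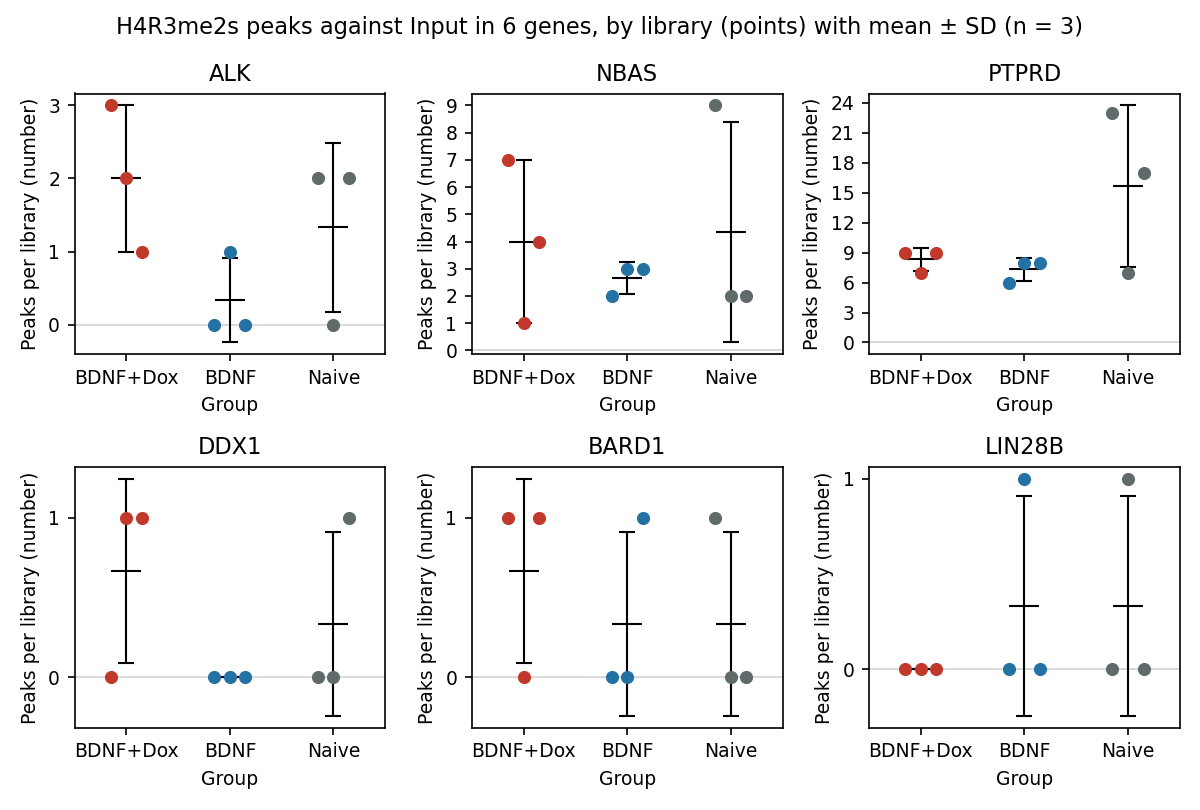
Peaks called against Input in 6 of the 8 genes (vertical axis, number per library), by group; points are libraries and bars are the mean ± SD (n = 3). ALK had 3, 2 and 1 peaks in BDNF+Dox libraries and at most 1 in a BDNF library, and PTPRD reached 23 and 17 peaks in 2 Naive libraries; MYCN and LMO1, at 0 throughout, are not drawn.

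The strongest of these peaks, chr2:29448963-29449205, was called in BDNF+Dox replicate 3 at a fold of 5.49 with q = 0.0358. It was the 1 ALK library peak of 11 with q of 0.05 or less, in a library where 0.411% of peaks reached that level. Of the 11, 9 had q = 1. BDNF+Dox replicates 2 and 1 had peaks 247 bp apart, at chr2:29793579-29793746 and chr2:29793993-29794167, about 128 kb inside the gene from its 5′ end. Close together but not overlapping were also a peak of BDNF+Dox replicate 1 at chr2:29443169-29443343 and one of Naive replicate 3 at chr2:29445159-29445336. The available annotation gives gene spans without exons, so exons and introns were not told apart.

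In the authors' calls of merged BDNF+Dox reads over merged Naive reads, ALK held 14 narrow peaks, and in those over merged BDNF reads it held 6. The count over Naive chose the gene. Of all 20037 protein-coding genes, 0 had more narrow peaks over Naive, the next being PRKCA with 12, while 45 had more over BDNF, where the highest count was 19. A narrow peak over Naive was present in 13.1% of protein-coding genes, and in 43.9% of the 3356 that are 100 kb or longer. Over BDNF these shares were 14.7 and 51.3%. Both pooled lists use the same merged BDNF+Dox reads, and neither carries a spread between replicates.

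Per length, ALK had 19.1 narrow peaks per Mb over Naive, 28th among the 3356 long genes, and 8.19 per Mb over BDNF, 544th. All long genes together had 3.15 per Mb over Naive and 3.95 over BDNF. The 5 Mb on each side of ALK held 5.4 and 7.4 narrow peaks per Mb, so over Naive the gene was 3.54 times as dense as its surroundings and over BDNF 1.11 times. In the libraries called against Input it was sparser than its surroundings, at 1.67 against 4.02 peaks per Mb per library, a ratio of 0.415. That ratio was 0.66 in BDNF+Dox libraries, 0.15 in BDNF libraries and 0.371 in Naive libraries. Of the long genes, 99.2% had a lower density than ALK over Naive and 38.1% had a lower density in the libraries.

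**Figure D2:**
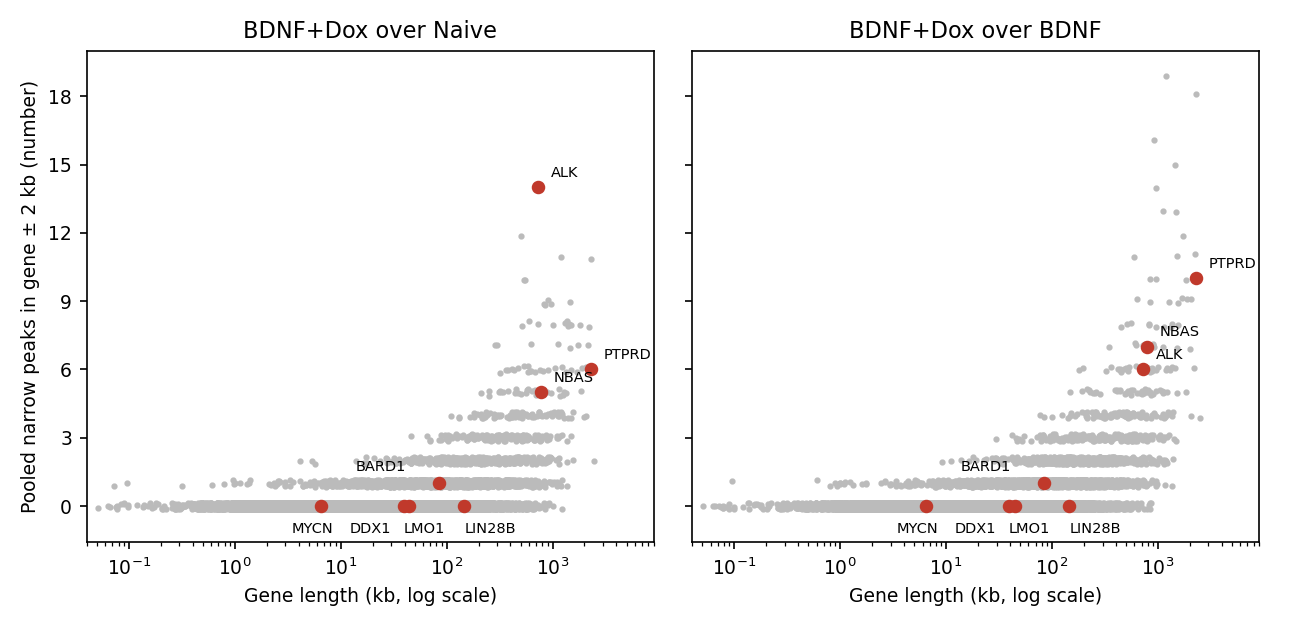
Number of pooled narrow peaks per gene (vertical axis) against gene length (horizontal axis, kb, log scale) for 20037 protein-coding genes (grey, spread slightly in height), with the 8 genes in red, for BDNF+Dox over Naive and over BDNF. ALK, with 14 peaks, is the highest point over Naive and lies among other long genes with 6 over BDNF.

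No ALK peak reached a q of 0.05 in either pooled list. Over Naive the folds ran from 1.96 to 3.47 in the authors' deposited table, with a median of 2.91 in ALK and 2.78 in the list. The median −log10 p over Naive was 4.19 in ALK and 3.56 in the list, so that ALK was above the list in both, in the authors' deposited table. Among the 14 ALK peaks, 11 had q = 1 in the authors' deposited table and 0 had q of 0.05 or less, a level reached by 1.01% of the list's 7882 peaks on assembled chromosomes (7919 in all), while 82.8% had q = 1. The smallest q in the authors' deposited table was 0.25, at chr2:29862948-29863116, 58.6 kb inside the gene, with a fold of 3.36. Next came chr2:29922219-29922416 at a fold of 3.47 with q = 0.564, and chr2:29624021-29624227 at a fold of 2.94 with q = 0.79, in the authors' deposited table. Peaks at chr2:29570048-29570217 and chr2:29887698-29887886 had folds of 3.19 and 2.92 and q = 1 in the authors' deposited table. With a −log10 p of 5 or more, 2 of the 14 peaks remained in the count.

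Over BDNF the leading ALK peak was chr2:29325202-29325428, at a fold of 3.14 with q = 0.827 in the authors' deposited table. It also overlaps LOC101929386, a second annotated gene. The other 5 ALK peaks had q = 1 there, and folds from 2.05 to 2.75, in the authors' deposited table. In the authors' deposited table the median fold over BDNF was 2.41 in ALK and 2.77 in the list, and the median −log10 p was 3.07 in ALK and 3.56 in the list, both lower in ALK. Of the 9850 peaks of this list on assembled chromosomes (9877 in all), 0.822% reached a q of 0.05 or below, while 68.5% stood at q = 1. At a −log10 p of 5 or more 0 ALK peaks over BDNF were counted. The broad calls held 27 ALK peaks over Naive and 18 over BDNF, covering 8654 and 5530 bp, against 3170 and 1140 bp for the narrow calls. A broad peak was present in 23.7% of protein-coding genes over Naive and in 25.4% over BDNF (70.5% and 74.1% of the long genes), and in 5 of the 8 genes in each.

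Along ALK, 7 of the 14 narrow peaks over Naive lay upstream of the gene or in its first 16.5%. That limit is the place of the farthest of these 7 peaks, 120.3 kb inside the 5′ end, so these data set it. In 4 equal stretches from the 5′ end, upstream peaks included, narrow peaks over Naive numbered 7, 3, 2 and 2. Those over BDNF numbered 4, 1, 0 and 1. The broad calls were more even, at 10, 6, 6 and 5 over Naive and 5, 5, 4 and 4 over BDNF. Whether peaks gather at the 5′ end was not tested. A pair stood just upstream of the main start printed above: over Naive at 633 to 830 and 1366 to 1536 bp from it, and over BDNF at 681 to 843 and 1367 to 1584 bp. The nearer of each pair began 383 and 431 bp beyond the promoter window. Their folds were 3.47 and 2.99 over Naive and 2.07 and 2.41 over BDNF in the authors' deposited table. These were the ALK peaks that lay in the 2 kb margin rather than in the gene span, and without the margin the counts were 12 and 4. Beyond the margin, up to 10 kb from the gene, ALK had no further peak in any list. A peak 4.99 kb inside the gene was also listed in both comparisons, at chr2:29916503-29916690 over Naive and chr2:29916512-29916690 over BDNF. No library had a peak at the upstream pair or at this last place, the closest ALK library peak being 31.2 kb or more away. Farther inside, chr2:29801089-29801400 and chr2:29325224-29325394 over Naive overlapped chr2:29801166-29801355 and chr2:29325202-29325428 over BDNF. Shared places were thus not confined to the 5′ end, and both lists use the same merged BDNF+Dox reads.

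Library support for pooled peaks was low in ALK and in the whole lists, and whether ALK differs from the lists was not tested. Over Naive 1 of 14, chr2:29443150-29443349, overlapped a BDNF+Dox library peak, that of replicate 1, and over BDNF 0 of 6 did. In the whole lists 18.3% of the peaks over Naive and 17.9% of those over BDNF overlapped such a peak. The median distance from a pooled ALK peak to the nearest ALK peak of any library was 31.8 kb over Naive and 34.7 kb over BDNF.

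The stretch of 2p around MYCN held peaks in NBAS and DDX1 but not in MYCN. MYCN itself (chr2:15940550-15947004, plus strand, 6.46 kb) had 0 peaks in the 9 libraries, 0 in the narrow lists and 0 in the broad lists. It is the shortest of the 8 genes. The 5 Mb on each side held 3.69 peaks per Mb per library, 8.1 narrow peaks per Mb over BDNF and 6.3 over Naive. LMO1 (chr11:8224309-8268787, 44.5 kb) likewise had 0 peaks in every library and pooled list.

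NBAS (chr2:14778909-15561334, minus strand, 782 kb) had 7, 1 and 4 peaks in BDNF+Dox replicates 1 to 3, against 2, 3 and 3 in BDNF and 9, 2 and 2 in Naive. Every library had at least 1, and the groups overlapped, with replicate 1 the highest of both BDNF+Dox and Naive. The counts averaged 4 ± 3 (SD, n = 3) in BDNF+Dox, against 2.67 ± 0.577 in BDNF and 4.33 ± 4.04 in Naive, a difference within the spread of the libraries (exact permutation p = 0.893 over the 3 groups, Benjamini-Hochberg adjusted over 7453 genes 1). Those replicates were also the libraries with the most peaks of their groups, 10864 and 12207. Per 1000 library peaks NBAS held 0.473 ± 0.285 for BDNF+Dox, against 0.474 ± 0.172 for BDNF and 0.443 ± 0.258 for Naive.

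Across all 7453 genes with a library peak, 0 passed the adjusted exact permutation test over the 3 groups, and 72 (0.966%) had an unadjusted p of 0.05 or less. The counts of 1733 of these genes could have given such a p under some grouping, and those of the rest could not. The smallest p this test can give is 0.00357, so that only a large set of genes at that p could pass after adjustment. With 3 libraries against 3, the smallest exact p is 0.1.

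In NBAS 2 of 31 regions recurred, where 2.37% of the regions of all libraries did. BDNF+Dox replicate 2 and Naive replicate 1 shared chr2:14996933-14997245, and BDNF replicate 1 and Naive replicate 1 shared chr2:15236717-15237090, where neither pooled comparison had a peak. The strongest NBAS library peak was chr2:15354486-15354653 in BDNF replicate 3, at a fold of 4.97 with q = 0.0449, the 1 of 33 with q of 0.05 or less, in a library where 0.276% reached it. Pooled, NBAS held 7 narrow peaks over BDNF and 5 over Naive, or 8.90 and 6.36 per Mb, close to the 8.2 and 6.5 per Mb over the 5 Mb on each side. The peak at chr2:15522187-15522412, 39.0 kb inside the gene, had the smallest q over BDNF, 0.136, with a fold of 3.35 in the authors' deposited table, the lowest q of any pooled peak in the 8 genes. Behind it over BDNF were chr2:15124306-15124468 at a fold of 3.09 with q = 0.827, and chr2:15056192-15056381 at a fold of 2.75 with q = 1, in the authors' deposited table. Over Naive chr2:15438301-15438623 led at a fold of 2.94 with q = 0.429, followed by chr2:15124306-15124468 and chr2:15284504-15284696 with folds of 2.99 and 2.49 and q = 1, in the authors' deposited table. At the last of these places BDNF+Dox replicate 3 also had a peak, as it did for a BDNF-list peak there. Thus 1 of 7 NBAS peaks over BDNF and 1 of 5 over Naive had BDNF+Dox library support, against 17.9% and 18.3% in the whole lists.

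DDX1 (chr2:15591868-15631101, plus strand, 39.2 kb), which lies 30.5 kb from NBAS, had 0, 1 and 1 peaks in BDNF+Dox, against 0 in every BDNF library and 0, 0 and 1 in Naive. The 2 BDNF+Dox peaks, chr2:15613507-15613694 of replicate 3 and chr2:15614173-15614491 of replicate 2, were 479 bp apart. The groups overlapped at 0 (exact permutation p = 0.679 over the 3 groups, where these counts allow 0.0357 at the least). That of replicate 3 was the strongest in DDX1, at a fold of 4.25 with q = 1, and no pooled list, narrow or broad, had a DDX1 peak.

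BARD1 (chr2:214725646-214809683, minus strand, 84.0 kb), on the long arm, had 1, 0 and 1 peaks in BDNF+Dox, against 0, 0 and 1 in BDNF and 1, 0 and 0 in Naive. For these counts the exact permutation test over the 3 groups could not go below 0.143, so BARD1 was in effect not tested. Its strongest library peak, chr2:214733724-214734016 in BDNF+Dox replicate 1, had a fold of 4.16 and q = 0.693. That place also held the 1 BARD1 peak over BDNF, chr2:214733736-214734031, at a fold of 2.90 with q = 1 in the authors' deposited table. Naive replicate 1 had its peak 158 bp further on, at chr2:214734174-214734410. The 1 peak over Naive lay elsewhere, at chr2:214794763-214794925 at a fold of 2.80 with q = 1 in the authors' deposited table, and had no library peak.

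LIN28B (chr6:104937026-105083332, plus strand, 146 kb) had 0 peaks in all 3 BDNF+Dox libraries, 1 in BDNF replicate 2 and 1 in Naive replicate 2. The exact permutation test over the 3 groups could not go below 0.25 for counts so few, so LIN28B was in effect not tested. These lay at chr6:105009398-105009550 with a fold of 3.44 and at chr6:105001393-105001604, both with q = 1. Neither pooled comparison had a narrow LIN28B peak, and the broad calls held 1 over BDNF and 2 over Naive. Just outside its margin, 5.75 kb from the gene, BDNF+Dox replicate 3 had a peak at chr6:104931054-104931273 at a fold of 3.19 with q = 1.

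PTPRD, by far the longest of the 8 (chr9:8314246-10613002, minus strand, 2299 kb), held 94 of the 147 library peaks. It had 9, 7 and 9 peaks in BDNF+Dox, against 6, 8 and 8 in BDNF and 23, 7 and 17 in Naive. Naive replicates 1 and 3 stood above the 6 differentiated libraries, and Naive replicate 2 was within their range. PTPRD counts averaged 8.33 ± 1.15 (SD, n = 3) in BDNF+Dox, against 7.33 ± 1.15 in BDNF and 15.7 ± 8.08 in Naive, a difference within the spread of the libraries (exact permutation p = 0.179 over the 3 groups, adjusted over all genes 1). For BDNF+Dox against BDNF the exact two-sided permutation p was 0.5, for BDNF+Dox against Naive 0.4 and for BDNF against Naive 0.3. Without Naive replicate 2, the unadjusted exact permutation p over the 3 groups was 0.0179. Leaving out any other library gave 0.164 to 0.361 by the same test. Without Naive replicate 2, 183 of 7204 genes had an unadjusted p of 0.05 or less, and 0 passed after adjustment. Per 1000 library peaks PTPRD held 1.09 ± 0.304 for BDNF+Dox, against 1.30 ± 0.413 for BDNF and 1.74 ± 0.497 for Naive, and Naive replicate 1 had the most peaks of any library.

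Peaks in PTPRD were spread along the gene, and 2 of 92 regions recurred (2.37% of the regions of all libraries). One of them, chr9:10213472-10213797, 399 kb inside the gene, had a peak in BDNF+Dox replicates 1 and 3 and in 0 of the 6 BDNF and Naive libraries, and the narrow list over BDNF had a peak there at a fold of 2.70 with q = 1 in the authors' deposited table. The other, chr9:9644395-9644634, had a peak in BDNF+Dox replicate 2 and Naive replicate 1. It coincided with the PTPRD peak of smallest q over BDNF, chr9:9644426-9644592, at a fold of 3.46 with q = 0.486 in the authors' deposited table. Next over BDNF were chr9:9100820-9101041 and chr9:10442217-10442390, with folds of 2.76 and 3.08 and q of 0.66 and 0.716 in the authors' deposited table.

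Over Naive PTPRD held 6 narrow peaks, or 2.61 per Mb, against 10 over BDNF, or 4.34 per Mb, with 3.6 and 3.5 per Mb in the 5 Mb on each side. The leading peak over Naive was chr9:9056179-9056353 at a fold of 3.28 with q = 0.476, before chr9:9790913-9791214 and chr9:9149452-9149741 with folds of 2.66 and 2.63 and q = 1, in the authors' deposited table. Of these 6 peaks 0, and of the 10 over BDNF 2, overlapped a BDNF+Dox library peak, where 18.3% and 17.9% of the whole lists did. The strongest library peak, chr9:9850887-9851067 in Naive replicate 3, had a fold of 5.43 and q = 0.0374. It was the 1 PTPRD peak of 94 with q of 0.05 or less, in a library where 0.556% of peaks reached that level.

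**Figure D3:**
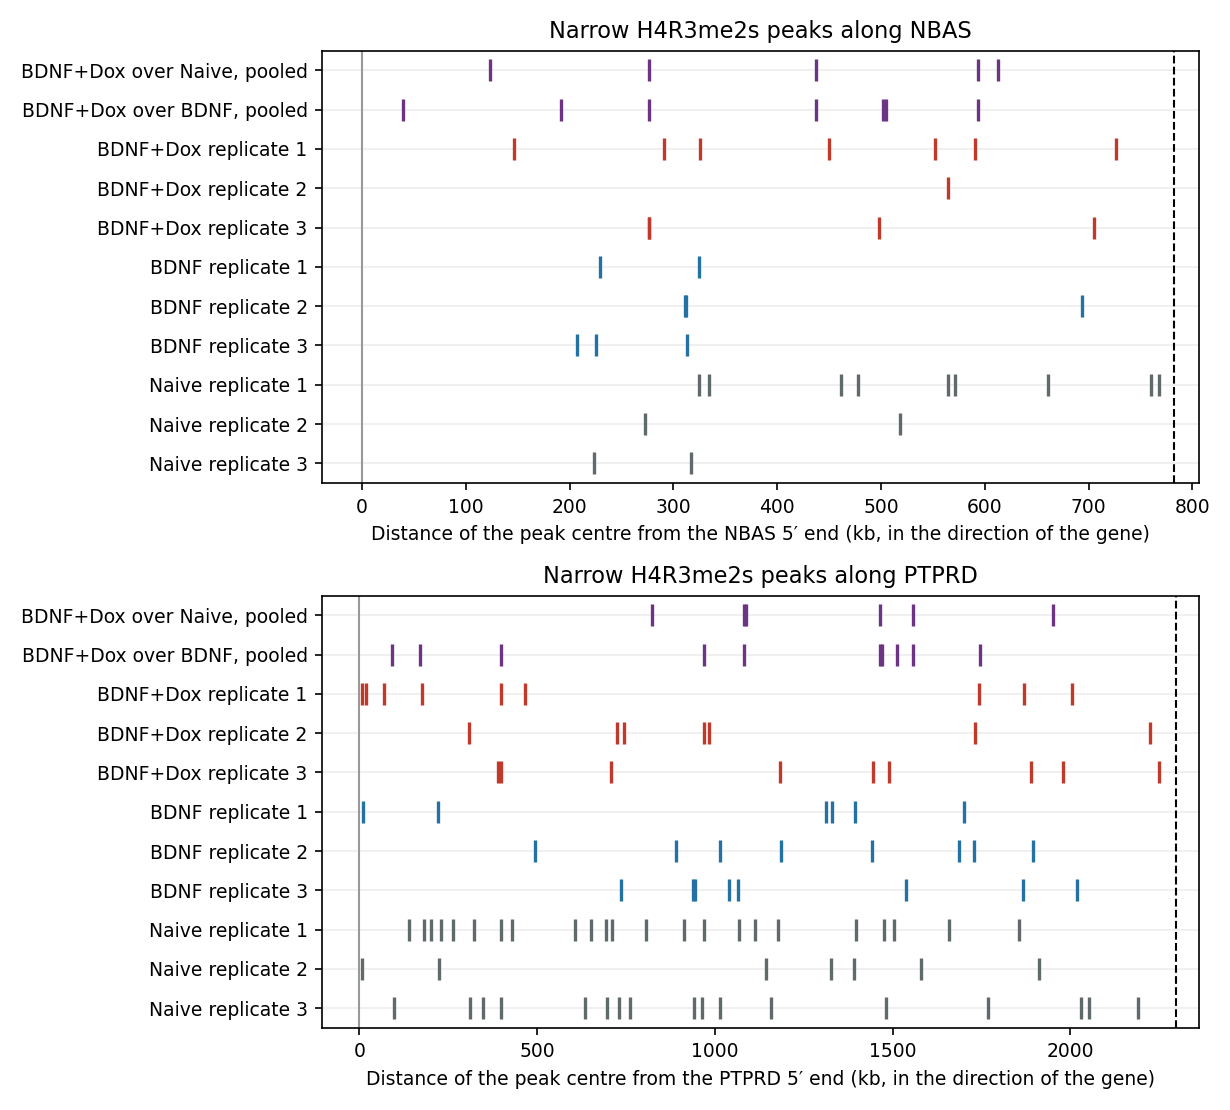
Centres of narrow peaks along NBAS and PTPRD (ticks), in kb from each 5′ end (solid line at 0, dashed line at the 3′ end), in the pooled lists and the 9 libraries. Naive replicate 1 has 23 PTPRD and 9 NBAS peaks, the most of any library, and few ticks line up between libraries.

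Summed over the 8 genes, libraries held 15.7 ± 4.51 (SD, n = 3) peaks in BDNF+Dox, against 11 ± 2.65 in BDNF and 22.3 ± 12.5 in Naive, so that BDNF+Dox differed by 4.67 from BDNF and by −6.67 from Naive. Naive replicate 1 alone had 35, and without it the difference from Naive was −0.333, while without Naive replicate 2, with 10, it was −12.8. Without BDNF+Dox replicate 1 the difference from BDNF was 2.5. As a share of all peaks the 8 genes took 0.198 ± 0.0488% for BDNF+Dox, against 0.197 ± 0.0809% for BDNF and 0.245 ± 0.0653% for Naive. When the counts were scaled by the total peaks of each library, the difference from BDNF was 0.122. Of the 143 library regions in the 8 genes, 4 recurred in 2 or more libraries, as did 2.37% of the 65632 regions of all libraries.

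The pooled lists held 26 narrow peaks over Naive in the 8 genes, 14 of them in ALK, and 24 over BDNF, 6 of them in ALK. Members with a narrow peak numbered 4 of 8 in each list, namely ALK, NBAS, BARD1 and PTPRD. The shares over all protein-coding genes were 13.1% over Naive and 14.7% over BDNF, and those over the genes of 100 kb or longer, to which ALK, NBAS, LIN28B and PTPRD belong, were 43.9% and 51.3%. The median density of the 8 genes was 1.30 per Mb over Naive and 2.17 over BDNF, against 0 and 1.79 for the long genes and 0 in both lists for all protein-coding genes. That median includes ALK, which was chosen by its narrow peaks over Naive. Without ALK, most of the remaining genes (MYCN, DDX1, LMO1 and LIN28B) had 0 in both lists, and so would their median. BDNF+Dox library peaks lay at 2 of the 26 and 4 of the 24, and at 18.3% and 17.9% of the peaks of the whole lists. Of either set, 0 had q of 0.05 or less in the authors' deposited table.

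**Figure D4:**
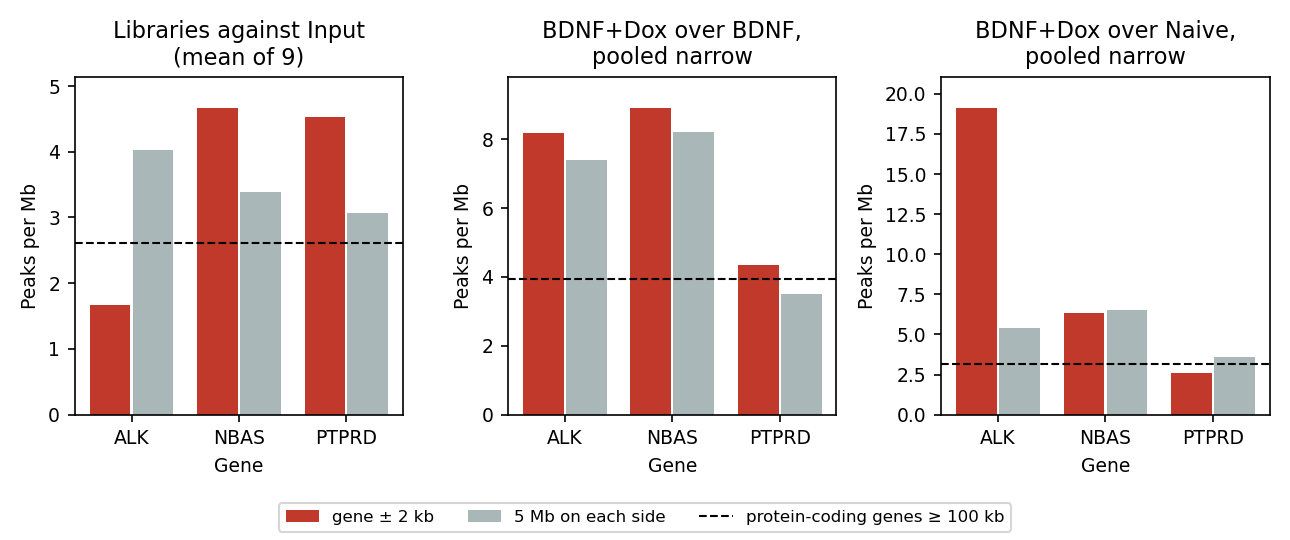
Narrow peaks per Mb in ALK, NBAS and PTPRD (red, gene with 2 kb on each side) and in the 5 Mb on each side of each gene (grey), for the mean of the 9 libraries and for both pooled lists; the dashed line is the density over all protein-coding genes of 100 kb or longer. ALK stands at 19.1 per Mb over Naive against 5.4 around it, and at 1.67 in the libraries against 4.02 around it.

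The surroundings of ALK on 2p were themselves dense in pooled peaks. Among 23 listed neighbours of ALK, 11 had a narrow peak over Naive and 12 over BDNF, with 6.89 and 9.05 peaks per Mb, against 2.93 and 3.52 per Mb for all protein-coding genes. BABAM2, a subunit of a BRCA1-associated deubiquitinase complex, had the smallest q among them over Naive at chr2:27923195-27923382, 0.0887 with a fold of 3.44 in the authors' deposited table, and the calpain gene CAPN14 over BDNF at chr2:31173812-31173997, 0.718 with a fold of 2.87 in the authors' deposited table. CLIP4, 8.97 kb from the 3′ end of ALK, had 2 narrow peaks over Naive and 0 over BDNF, and YPEL5, 225 kb from the 5′ end, had 1 and 0. Around MYCN, 26 listed genes other than NBAS, DDX1 and MYCN had 2.24 peaks per Mb over Naive, in 4 genes, and 5.61 over BDNF, in 8 genes. CYRIA, of a family of RAC1-binding proteins, had the smallest q of these over Naive at chr2:16612145-16612307, 0.175 with a fold of 3.63 in the authors' deposited table.

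Genes of the ALK pathway had peaks at densities nearer those of all genes. In a list of 42 ligands, related receptors and signalling genes, 9 had a narrow peak over Naive and 10 over BDNF, where 13.1% and 14.7% of all protein-coding genes did. The list had 4.21 peaks per Mb over Naive and 4.47 over BDNF, against 2.93 and 3.52 for all protein-coding genes, and its median gene had 0.5 peaks over the 9 libraries, against 0 for all protein-coding genes. Per library the list held 13.3 ± 3.51 (SD, n = 3) peaks for BDNF+Dox, against 6 ± 2 for BDNF and 11 ± 6.08 for Naive. These counts were not scaled by the total peaks of a library, which averaged 8045, 5865 and 8674 in the same order. PTPRG, a receptor tyrosine phosphatase, had the smallest q in both lists at chr3:62226111-62226280, 0.214 with a fold of 3.70 over Naive and 0.223 with a fold of 3.63 over BDNF in the authors' deposited table. Of the 42 genes, 21 had a library peak and were tested. Of these, 0 passed the exact permutation test over the 3 groups, adjusted or at an unadjusted p of 0.05. Over all 7453 tested genes 0.966% had such an unadjusted p, so that 0 among so few says little. In either pooled list 0 of the 42 had a narrow peak with q of 0.05 or less.

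In a second list of 46 other neuroblastoma genes, among them the noradrenergic identity factors and the genes often altered in the tumour, 15 had a narrow peak over Naive and 15 over BDNF, where 13.1% and 14.7% of all protein-coding genes did. Per length the list was below all protein-coding genes, with 2.39 against 2.93 peaks per Mb over Naive and 2.98 against 3.52 over BDNF. ATRX, a chromatin remodeller inactivated in part of the tumours, had the smallest q in both, 0.214 with a fold of 3.70 at chrX:77761881-77762085 over Naive and 0.221 with a fold of 3.69 at chrX:77689213-77689375 over BDNF in the authors' deposited table. Averages over these 46 genes were 27 ± 10 (SD, n = 3) library peaks for BDNF+Dox, against 14.7 ± 3.06 for BDNF and 22 ± 7.94 for Naive. These too were not scaled by the total peaks of a library. Of the 46, 21 had a library peak and were tested. As with the pathway genes, 0 of these passed the exact permutation test over the 3 groups, adjusted or at an unadjusted p of 0.05. The unadjusted share over all tested genes was 0.966%, so this too says little.

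Among the other 3355 long genes, those with the pattern most like ALK were TYW1B, PLXNA2, XYLB, ZSWIM6 and ARHGEF28. Likeness was the Euclidean distance over 5 values, the square roots of peaks per Mb summed in the BDNF+Dox, BDNF and Naive libraries and in the 2 narrow pooled lists. It ranged from 0.889 for TYW1B to 1.43 for ARHGEF28, against a median of 5.18. These genes are shorter, from 106 kb for XYLB to 316 kb for ARHGEF28, and rest on 2 to 5 narrow peaks over Naive and 1 or 2 over BDNF, where ALK had 14 and 6. Densities over Naive ran from 13.8 per Mb in ZSWIM6 to 19.4 in TYW1B, against 19.1 in ALK.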

How the data were processed

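H4R3me2s ChIP-seq peaks of 9 SH-SY5Y libraries and 4 pooled comparisons were used as deposited. The submitters' processing notes name cutadapt 1.1, Trimmomatic 0.32, Bowtie (version not given in the sources used here) and GRCh38. Per the file headers, the authors called peaks with MACS2 2.2.7.1 at p 0.01, each library against the Input as narrow peaks, and the merged BDNF+Dox reads over the merged BDNF and Naive reads, as narrow and as broad peaks, with 1 read allowed at a position and the larger library scaled down. The merged calls find only excess signal in BDNF+Dox. Each deposited peak carries its pileup signal, −log10 p, −log10 q and fold (a ratio to local background), all by the authors. A q-value (q) was taken as deposited, although per the file headers none was to be computed.

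Peaks overlapping a RefSeq gene span plus 2 kb on each side by 1 bp or more were counted (Python 3.11.15, numpy 2.4.6, pandas 2.3.3). Groups were compared in peaks per library by exact permutation (F ratio, 1680 assignments) for 7453 genes with a library peak, with Benjamini-Hochberg adjustment over all of them, and pairs of groups by exact two-sided permutation of the means (20 assignments). The call threshold was 0.05. Replicate numbers were not used as a block. Members, lists and the rule for named peaks were chosen with earlier results of these data known. Named were the 8 genes, their peaks of smallest q (up to 5 in ALK and 3 elsewhere in a pooled list), regions in 2 or more libraries, list members with the smallest q, and the 5 genes most like ALK, while PRKCA and the close pairs of library peaks were chosen after their values were seen. The limit used for the peaks near the 5′ end of ALK was likewise set by the peaks themselves. Sequences are from RefSeq, GRCh38.p14.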

Additional observations from a re-analysis of the deposited data

How the results depend on the processing

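The 5 genes tested over the 3 groups (NBAS, PTPRD, DDX1, BARD1 and LIN28B) were recomputed 83 times, of which 61 had counts that could give a p of 0.05 or less under some grouping. In 60 of these 61 the exact permutation p stayed above 0.05, the exception being 0.0179 for PTPRD without Naive replicate 2. The rest could not have passed, and they say nothing of stability. DDX1 and LIN28B had no peak left to test at a −log10 p of 5 or more. Genes passing the adjusted test numbered 0 under every setting run. The smallest p of the test as reported is 0.00357, so only a large set of genes at that p could pass, and this 0 says little of stability. Genes at an unadjusted p of 0.05 or less, 72 as reported, numbered 5 at a −log10 p of 5 or more and 34 with equal peak numbers per library (4536). They numbered 111 with counts scaled by total peaks and 93 to 183 when 1 library was left out. The ALK count over Naive, 14 as reported, was 2 at a −log10 p of 5 or more and 27 in the broad calls. That over BDNF, 6 as reported, was 3 at a −log10 p of 3 or more, 0 at 5 or more and 18 in the broad calls. The difference of BDNF+Dox from BDNF over the 8 genes, 4.67, was −1.33 at a −log10 p of 5 or more, −1 with equal peak numbers and 0.122 with scaled counts, and 2.5 to 7 with 1 library left out. That from Naive, −6.67, was −2.67 at a −log10 p of 5 or more and −3.48 with scaled counts, and −12.8 to −0.333 with 1 library left out. The causes of these shifts were not tested.

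Same-numbered libraries of different groups did not deviate together (9 correlations across genes from −0.0378 to 0.0327). Differently numbered ones gave a like range (18 from −0.0389 to 0.0412). With few peaks per gene and few regions shared between libraries, this check could hardly show a pairing. It does not decide whether the replicate numbers pair the samples. With the replicate number as a block, the differences were 4.67 ± 7.02 (SD of 3 pairs) from BDNF and −6.67 ± 8.02 from Naive. PTPRD had an exact permutation p of 0.278 in this form, where its counts allow 0.0556 at the least, so it could not have passed. Under the block 5 genes had an unadjusted p of 0.05 or less and 0 passed the adjusted test. The blocked p could not go below 0.0278 even for NBAS. With so coarse a test over 7453 genes, that 0 says nothing of stability. Of 9 libraries, 3 correlated best with one of their own number. Depth limits all of this: a peak list holds no reads below the authors' threshold.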
